A study of Mus musculus with 3 samples.

Results

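The genes described here are the protease inhibitors of 3 families: the serpins (symbols starting with Serpin), the Kazal-type inhibitors (Spink) and the proteins with a whey acidic protein domain (Wfdc). They were chosen by symbol and by a sum of at least 20 unique molecular identifiers (UMIs, each standing for 1 captured RNA molecule) over the 3 deposited matrices. This left 54 genes of the 32594 listed: 34 of 62 Serpin rows, 9 of 13 Spink rows and 11 of 18 Wfdc rows. Of the other 39 rows, 7 had no UMI. Serpinb9b, with 20 UMIs, and Serpinb6e, with 21, lay just inside this limit, and Serpini2, with 19, and Wfdc11, with 18, just outside it.

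The study profiled whole prostates of C57BL6 mice by 10x Genomics single-cell RNA sequencing, with 1 library from Srd5a2 knockout (Srd5a2-/-) and 2 libraries from Srd5a2 heterozygote (Srd5a2+/-) tissue. Srd5a2 encodes a steroid 5-alpha reductase, which turns testosterone into dihydrotestosterone, and the controls carried 1 disrupted copy. Age is given as 12 to 15 weeks in one label and 12 weeks in another, no treatment of the mice is listed, and dihydrotestosterone was present in the enzyme mix used on every tissue (2 h at 37 °C). The number of animals behind each library is not stated in the labels, so genotype cannot be told apart from anything else that differs between 1 library and the other two, and p-values measure only the spread between these libraries.

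Serpins trap their target protease in a covalent complex, and some members have lost inhibition and work as chaperones or hormone carriers. Kazal-type and whey acidic protein domains are small and held together by disulphide bonds, and many block trypsin-like or elastase-like enzymes in secretions. The accessory sex glands of male mice secrete large amounts of such inhibitors into seminal fluid, where proteolysis is under tight control.

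The knockout library held 129015041 UMIs in 13273 barcodes, heterozygote 1 held 47601747 in 5000, and heterozygote 2 held 100801564 in 13866. After filters on genes and mitochondrial RNA and removal of called doublets, 9133, 4526 and 9630 cells remained. Pairs of libraries shared 15 to 57 barcode sequences. Srd5a2 itself was at 17 UMIs in the knockout against 145 and 210 (0.132 against 3.05 and 2.08 CPM, the UMI count scaled to a library total of 1000000), and whether these tags lie inside the disrupted part was not tested. RNA of 8 seminal vesicle secretory genes took 42.3% of all UMIs in the knockout library against 13.3% and 11.5%.

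Cells were clustered without the inhibitor genes, and clusters were named from marker genes, so that a class name below means cells like that type. The 9 classes with at least 50 cells in each library were luminal secretory (1262, 2095 and 4177 cells in the knockout, heterozygote 1 and heterozygote 2), luminal proximal (133, 313 and 232), basal (1861, 722 and 1607), seminal vesicle (2081, 326 and 492), ionocyte (203, 110 and 224), fibroblast (523, 55 and 202), smooth muscle (608, 128 and 178), endothelial (135, 57 and 93) and a cluster that stayed unnamed. That cluster, led by the gene Sprr2f (399, 331 and 139 cells), carried the proximal markers Ppp1r1b and Krt7 but also 50.8%, 46.8% and 43.2% of its UMIs from seminal vesicle secretory genes. It is called the Sprr2f cluster. Ionocytes also held 29.6%, 37.6% and 37.8% of such UMIs. The seminal vesicle class is tissue of a neighbouring gland, and its clusters 9 and 11 were nearly confined to the knockout library (824 and 754 cells, against 1 and 10 in heterozygote 1 and 1 and 0 in heterozygote 2).

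The 3 families were very unequal in abundance. Spink genes gave 3199929 UMIs, Wfdc genes 211064 and Serpin genes 191177. In luminal secretory cells the Spink genes alone made up 0.601% of UMIs in the knockout, 2.52% in heterozygote 1 and 2.03% in heterozygote 2, and Serpin genes 0.0473%, 0.0564% and 0.0586%. In fibroblasts Serpin genes were at 0.309%, 0.244% and 0.273% and Spink genes at 0.143%, 0.0902% and 0.283%, so Serpin genes led in the knockout and heterozygote 1 but not in heterozygote 2. Levels below are CPM of the class total and are not divided by gene length, since a UMI stands for 1 molecule whatever its length.

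**Figure D1:**
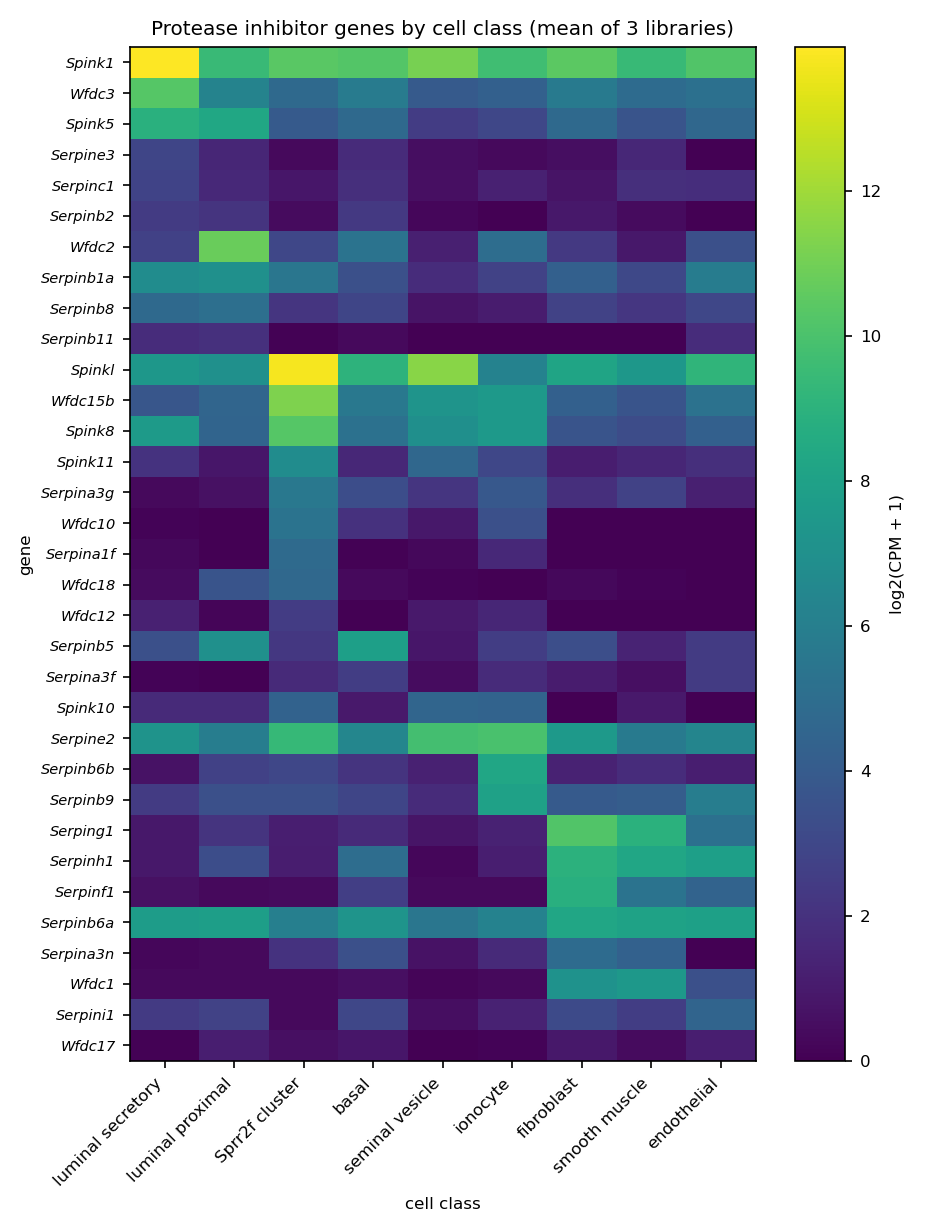
Each row is a gene with at least 200 UMIs in cells, each column a cell class, and colour gives log2(CPM + 1) of the mean over the 3 libraries. Spink1 is highest in luminal secretory cells, Spinkl and Wfdc15b in the Sprr2f cluster, Wfdc2 in luminal proximal cells, and Serping1, Serpinh1 and Serpinf1 in fibroblasts.

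Of 53 members with at least 20 UMIs in cells, 18 had the same leading class in all 3 libraries among these 9 classes: 12 of 33 Serpin, 3 of 9 Spink and 3 of 11 Wfdc genes. Levels between classes are given as a description, with no test. The Sprr2f cluster led for 5 of the 18 (Serpina1f, Serpina3g, Spink11, Spinkl and Wfdc15b), fibroblasts for 4 (Serpinb6c, Serpinf1, Serping1 and Serpinh1), luminal secretory cells for 4 (Serpinc1, Serpine3, Spink2 and Wfdc3) and ionocytes for 3 (Serpinb1b, Serpinb6b and Serpinb9). Luminal proximal cells led for Wfdc2. Some of these leads rest on few UMIs. Serpinb6c had 123 UMIs in cells, 5.69% of them in fibroblasts and 72.4% in luminal secretory cells. Its lead over luminal secretory cells was 1.03-fold in the knockout. Serpinb1b had 48 UMIs in cells and Spink2 had 47. Of the 18, 9 kept their class with doublets kept, 11 with the stricter cell filter and 13 with the members allowed in clustering, settings in which the Sprr2f cluster did not form. The remaining 35 changed leader between libraries, among them the abundant Spink1, Serpine2 and Serpinb6a.

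Spink1, a secreted trypsin inhibitor, was the most abundant member. It reached 5297 CPM in knockout luminal secretory cells, 23936 in heterozygote 1 and 19663 in heterozygote 2. Most of this came from cluster 15, a luminal secretory cluster led by Sbp, in which Spink1 made up 11.01%, 13.1% and 15.7% of all UMIs. Cluster 15 held 63.9% of all Spink1 UMIs and 80.3% of those of Spink5, a multidomain Kazal inhibitor known from skin and other barrier epithelia. Spink5 was at 3671, 4904 and 3038 CPM in cluster 15. Both genes were thus concentrated in the same small set of luminal cells, which were clustered without either gene.

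Spinkl, a Kazal-like relative of these genes, had another place. It was at 7531, 26953 and 8391 CPM in the Sprr2f cluster, the highest class in each library. In the knockout this lead over the seminal vesicle class was only 1.04-fold, and cluster 11 of that class was higher, at 9100 CPM. The UMIs of Spinkl lay 63.5% in the seminal vesicle cluster 11, which is nearly absent from the heterozygotes, and 28.2% in the Sprr2f cluster. Spink11 followed the same 2 clusters, with 62.8% of its UMIs in cluster 11 and 79.8, 148 and 103 CPM in the Sprr2f cluster. Spink8 was at 95.4 CPM there in the knockout against 1926 and 1760 in the heterozygotes, so that its leading class was the Sprr2f cluster in both heterozygotes and luminal secretory in the knockout.

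Among the whey acidic protein genes, each abundant member had a cluster of its own. Wfdc2, a secreted product of many epithelia, was at 1102, 2302 and 1958 CPM in luminal proximal cells, and cluster 14, the only cluster of that class, held 75.7% of its UMIs. Wfdc3 was at 6902, 9987 and 8554 CPM in the luminal secretory cluster 12, led by H2-Q10 and Msmb, which held 69.3% of its UMIs. Wfdc15b was at 2232, 3351 and 1992 CPM in the Sprr2f cluster, with 68.6% of its UMIs. Wfdc1 was a gene of the stroma, led by smooth muscle in both heterozygotes and by fibroblasts in the knockout, with means of 176 and 138 CPM. Wfdc17 lay outside these classes: 76.4% of its UMIs were in the macrophage cluster, at 560, 269 and 338 CPM over 123, 30 and 87 cells.

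The stromal serpins formed a separate group. Serping1, the C1 inhibitor of the complement and contact systems, was at 1382, 914 and 1229 CPM in fibroblasts and 269, 670 and 507 in smooth muscle. Serpinf1, which encodes the anti-angiogenic factor PEDF, was at 582, 392.4 and 409 CPM in fibroblasts, which held 70.8% of its UMIs. Serpinh1, a collagen chaperone of the endoplasmic reticulum without inhibitor activity, was at 491, 580 and 429 CPM in fibroblasts, and its mean fell through smooth muscle (307) to endothelial cells (238).

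Serpine2, a thrombin and urokinase inhibitor known as a secretory product of the seminal vesicle, had its highest levels in ionocytes and the seminal vesicle class. It was at 936, 1020 and 1023 CPM in ionocytes and at 432, 1225 and 1085 CPM in the seminal vesicle class, whose cluster 4 held 1293, 1280 and 1085 CPM against 218 in the knockout's cluster 11. The order of ionocytes and seminal vesicle cells therefore turned between the knockout and the heterozygotes, and the low class level of the knockout went with cells of clusters 9 and 11. Seminal vesicle secretory genes took 29.6%, 37.6% and 37.8% of ionocyte UMIs, and whether ionocytes make Serpine2 was not tested. Serpinb5 (maspin), a clade B serpin of basal epithelium, was at 188, 283 and 231 CPM in basal cells and 189, 116 and 86.6 in luminal proximal cells. Basal cells led in both heterozygotes, and in the knockout the levels of these classes were nearly equal.

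Ionocytes, acid-secreting cells marked by Foxi1 and subunits of the vacuolar proton pump, carried 2 intracellular clade B serpins of the granzyme-inhibitor type. Serpinb6b was at 410, 252 and 267 CPM and Serpinb9, an inhibitor of granzyme B in cytotoxic lymphocytes, at 351, 239 and 193. T or NK cells, which were too few for a test (240, 13 and 71), had Serpinb6b at 570, 105.4 and 326 CPM (418, 6 and 40 UMIs) and Serpinb9 at 644, 193 and 318. Dendritic cells (25, 26 and 31) had Serpinb9 at 837, 483 and 575 CPM, above ionocytes in every library. Serpinb6a was broad, with means from 307 CPM in fibroblasts to 248 in endothelial cells among its first 3 classes and 214 in luminal secretory cells.

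Several named serpins were close to the limit of detection. Serpina5, the protein C inhibitor known from human male reproductive fluids, had 20 UMIs in all cells together. Serpina3n, an acute-phase clade A serpin, had 667 UMIs and no stable leader, with means of 28.5 CPM in fibroblasts and 19.3 in smooth muscle. Serpinc1 (antithrombin) and Serpine3 were led by luminal secretory cells in each library but only at means of 6.16 and 6.63 CPM.

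**Figure D2:**
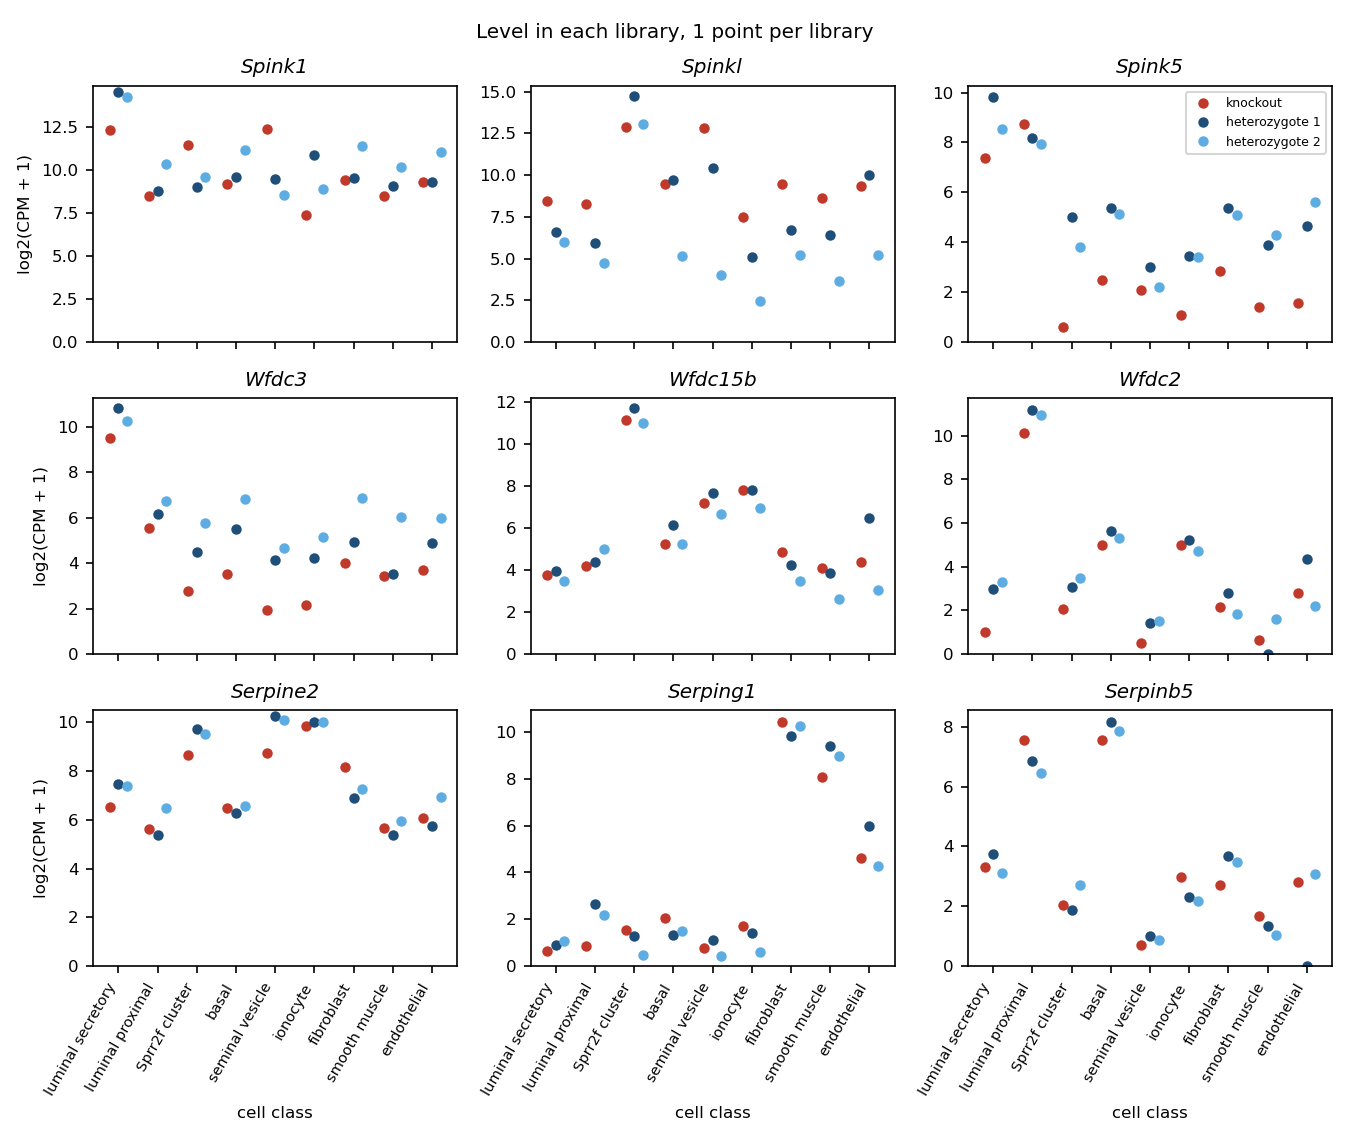
Each panel is 1 gene, the horizontal axis gives the cell class and the vertical axis log2(CPM + 1), with 1 point per library. The leading class of Wfdc2, Wfdc15b and Wfdc3 stands apart in every library, while fibroblasts and smooth muscle lie close for Serping1 in heterozygote 1, at 914 and 670 CPM, and Spink1 and Spinkl are also seen at lower levels in every other class.

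Spink1 and Spinkl were found in all classes, including cells not known to make them. T or NK cells and macrophages combined (363, 43 and 158 cells) held Spink1 at 698, 2594 and 3249 CPM and Spinkl at 735, 200 and 37.7 CPM. The whole libraries held Spink1 at 4117, 13280 and 11827 CPM and Spinkl at 4514, 2748 and 270 CPM, so that the immune levels followed the order of knockout and heterozygotes in the library. Wfdc3, at 9.41, 48.6 and 175 CPM in immune cells and 125, 974.5 and 742.5 in the libraries, and Spink5, at 7.06, 72.9 and 32.4 in immune cells and 32.4, 526 and 220 in the libraries, were likewise lowest in the knockout in both. These immune levels are used below as the background for free RNA in droplets, and a level at or below them is not read as expression. They can be too high for genes that immune cells make. They can also be too high for deeper cells, in which free RNA can take a smaller share. Median UMIs per cell were 3154, 3537 and 2017 in these immune cells, against 13478.5, 9921 and 9712 in luminal secretory cells. In heterozygote 1 the immune levels rest on only 43 cells. The immune levels can be too low for classes rich in seminal vesicle RNA, such as ionocytes and the Sprr2f cluster.

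The question of the genotype comparison is whether cells of a given class differed between knockout and heterozygote tissue. UMIs were summed per library and class and tested with edgeR's quasi-likelihood test at a Benjamini-Hochberg adjusted p under 0.05 over all genes tested in that class. With 1 library against 2, the test has 1 residual degree of freedom and leans on the spread shared across genes. There were 54 calls in 24 of the 54 members, 21 higher and 33 lower in the knockout. In 22 of these 54 calls the side with more RNA was at or below the level of immune cells in the same libraries, among them Spink1 in basal cells and Wfdc3 in basal cells and fibroblasts. In the remaining 32 calls at least 1 library on that side was above it. In 15 of the 54 calls no library was at or below the immune level.

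**Figure D3:**
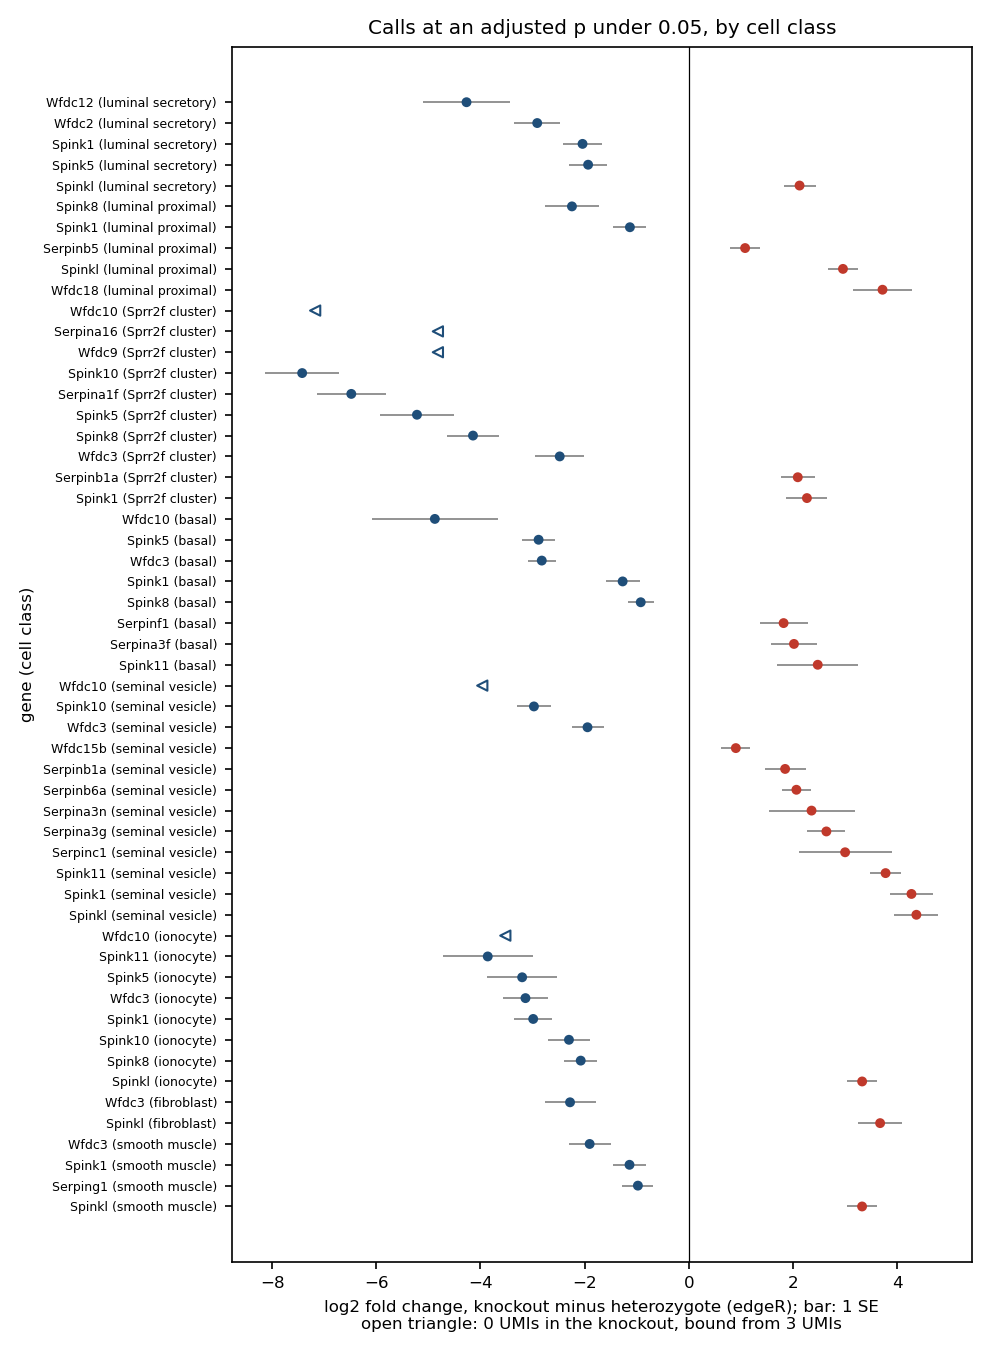
Each row is a member called in 1 cell class, the horizontal axis gives the log2 fold change of knockout minus heterozygote, and bars give 1 standard error. Open triangles mark 5 calls with no knockout UMI, drawn at the bound that 3 UMIs set. Spink1 lies on the left in luminal secretory, luminal proximal, basal, ionocyte and smooth muscle cells and on the right in the Sprr2f cluster and the seminal vesicle class.

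In luminal secretory cells, 32 members were tested, 1 was higher and 4 were lower, against 1.99% of all genes called in that class. The median log2 fold change was -0.10 for members and -0.02 for all genes tested. Spink1 fell by 2.04 ± 0.37 (SE; adjusted p = 1.11e-05) and Spink5 by 1.93 ± 0.36 (adjusted p = 2.62e-05), both lower in the knockout than in either heterozygote. The Spink5 call was lost with DESeq2, while that of Spink1 was kept in all 11 alternatives. Wfdc2 fell by 2.91 ± 0.44 (adjusted p = 1.85e-08) from 6.78 and 8.85 CPM to 1.03, levels far under its level in proximal cells. T or NK cells held Wfdc2 at 2.73, 52.7 and 0 CPM (2, 3 and 0 UMIs), and macrophages at 3.68, 0 and 0. The knockout and heterozygote 1 levels were thus under those of T or NK cells, and the heterozygote 2 level was above. The whole libraries held Wfdc2 at 15.6, 132 and 60.9 CPM, also lowest in the knockout. Whether luminal secretory cells make it was not tested. Wfdc12 fell by 4.27 ± 0.84 (adjusted p = 6.37e-05), with 2, 90 and 23 UMIs. Of the 90 in heterozygote 1, 90.0% lay in 10 cells.

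The fall of Spink1 and Spink5 moved with the share of cluster 15 in the class. Cluster 15 held 49 of 1262 knockout cells (3.88%, exact binomial 95% interval 2.89 to 5.10, counting error only), 252 of 2095 in heterozygote 1 (12.0%, 10.7 to 13.5) and 305 of 4177 in heterozygote 2 (7.30%, 6.53 to 8.13). Within cluster 15 Spink1 was at 110055, 130710 and 157428 CPM, and Spink5 in the knockout lay between the heterozygotes. With 49 knockout cells the cluster fell short of the minimum for a test. Without cluster 15 the class held Spink1 at 343, 918 and 4776 CPM, of which the levels in the knockout and heterozygote 1 were under those of immune cells. In knockout luminal secretory cells 58.5% of Spink1 UMIs and 97.1% of Spink5 UMIs lay in 10 cells.

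**Figure D4:**
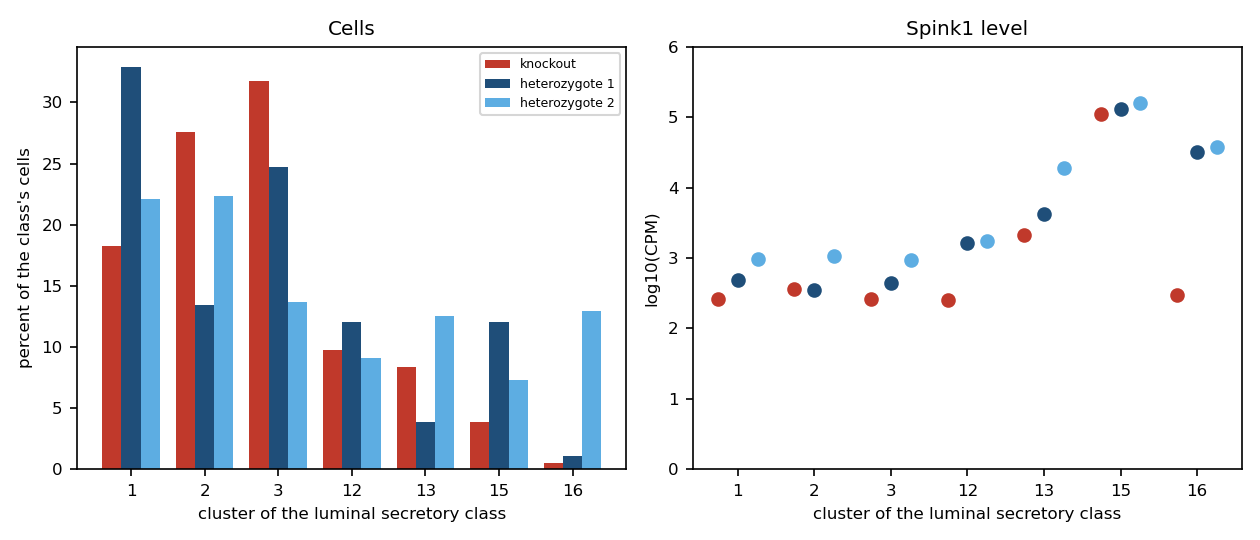
The left panel gives the percent of luminal secretory cells in each of its 7 clusters, with 1 bar per library, and the right panel the Spink1 level in each cluster as log10(CPM), with 1 point per library. In cluster 15 the 3 libraries lie close together at 110055 to 157428 CPM, while cluster 15 holds 3.88% of knockout cells against 12.0% and 7.30%.

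Wfdc3, the other abundant inhibitor of this class, was at 727, 1799 and 1216 CPM. Its log2 fold change was -1.06 ± 0.35 (adjusted p = 0.111), so it did not pass. In its own cluster 12, fitted alone, 17 members were tested and 3 were lower (Spink1, Spink5 and Spink8), against 1.45% of all genes, and Wfdc3 did not pass. Of these, Spink1 and Spink5 were under the immune level in every library.

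The large clusters of the class were also fitted one at a time, a choice made after the data were seen. Cluster 1 had 1 member higher and 4 lower of 24 tested (2.84% of all genes called), cluster 2 had 2 and 5 of 19 (2.58%), and cluster 3 had 3 and 4 of 21 (1.60%). In 3 of the 5 calls of cluster 1, 3 of the 7 of cluster 2 and 4 of the 7 of cluster 3, the side with more RNA was at or below the immune level, and these are not read as expression. Serpine2 fell by 1.20 ± 0.27 in cluster 2 (377, 544 and 2040 UMIs; adjusted p = 0.00112) and by 1.02 ± 0.29 in cluster 3 (514, 1010 and 1243 UMIs; adjusted p = 0.0373). Serpinb1a, a clade B inhibitor of neutrophil proteases, rose by 0.83 ± 0.25 in cluster 2 (adjusted p = 0.0432) and by 0.94 ± 0.26 in cluster 3 (adjusted p = 0.0256). Over the whole class neither passed, at -0.91 ± 0.33 (adjusted p = 0.180) for Serpine2 and 0.81 ± 0.30 (adjusted p = 0.221) for Serpinb1a.

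In luminal proximal cells 17 members were tested, 3 were higher and 2 lower, against 2.25% of all genes. Serpinb5 rose by 1.08 ± 0.29 (adjusted p = 0.0115), from 116 and 86.6 CPM to 189, and lay above immune cells in every library. This call was lost with DESeq2, the stricter cell filter, doublets kept, the members allowed in clustering and another random seed, with log2 fold changes from 0.96 to 1.47 over all alternatives. Wfdc2, the leading inhibitor of these cells, was at -0.76 ± 0.31 and did not pass (adjusted p = 0.266). Wfdc18 was called higher by 3.72 ± 0.57 (adjusted p = 2.89e-08) from 36, 4 and 6 UMIs, and the 36 knockout UMIs lay in 2 cells. Spinkl, Spink1 and Spink8 made up the other calls, and for Spinkl and Spink1 the side with more RNA was under the immune level.

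The Sprr2f cluster had 26 members tested, 2 higher and 8 lower, against 2.51% of all genes. The median log2 fold change of the members was -0.97, against -0.04 for all genes. Spink8 fell by 4.14 ± 0.51 (adjusted p = 6.83e-06), from 1926 and 1760 CPM to 95.4, by plain totals. After scaling it was at 101.7 CPM against 2020 and 1574 with all cells, and at 75.6 against 788 and 842 without the 10 cells richest in Spink8 in each library, so the difference kept its direction and became smaller. Spink1 rose by 2.27 ± 0.39 (adjusted p = 7.04e-04), to 2819 CPM from 515 and 790. Seminal vesicle secretory genes took 50.8%, 46.8% and 43.2% of this cluster's UMIs, and the knockout's seminal vesicle cluster 11 held Spink1 at 6878 CPM. Over the whole libraries Spink1 was lowest in the knockout, at 4117 CPM against 13280 and 11827. Whether free RNA raised Spink1 in this cluster was not tested. Serpinb1a rose by 2.09 ± 0.33 (adjusted p = 2.33e-04), to 86.3 CPM from 20.6 and 24.05. The leading genes of the cluster did not pass: Spinkl was at -1.16 ± 0.58 (adjusted p = 0.445) with the knockout between the heterozygotes, and Wfdc15b at -0.15 ± 0.45 (adjusted p = 0.960).

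For 3 of 5 further members called lower in this cluster, nearly all UMIs lay in few heterozygote cells. Wfdc10 had 0 UMIs in the knockout against 335 and 85, at least 144-fold lower by a floor of 3 UMIs over the knockout library. Wfdc9 had 0 against 67 and 15, and Serpina16 had 0 against 56 and 26, both at least 28.2-fold lower. Spink10 fell by 7.42 ± 0.71 (1, 119 and 80 UMIs; adjusted p = 1.93e-07) and Serpina1f by 6.48 ± 0.66 (3, 210 and 78 UMIs; adjusted p = 4.57e-07). These genes were singled out after their values were seen. Cells with a UMI of at least 3 of the 5 numbered 0 of 399 in the knockout, which allows a share of up to 0.752% of cells with such UMIs (counting error only, and no limit on cells of that kind), 8 of 331 in heterozygote 1 and 4 of 139 in heterozygote 2. Those 8 cells held 320 of the 335 Wfdc10 UMIs and all 67 of Wfdc9 in heterozygote 1. In the other cells of the cluster, Wfdc9 had 0 UMIs in every library, Serpina16 had 0, 0 and 1, and Wfdc10 had 0, 15 and 2. Spink10 and Serpina1f did not rest on those 12 cells alone: in the other cells Spink10 had 1, 12 and 40 UMIs and Serpina1f 3, 51 and 21.

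**Figure D5:**
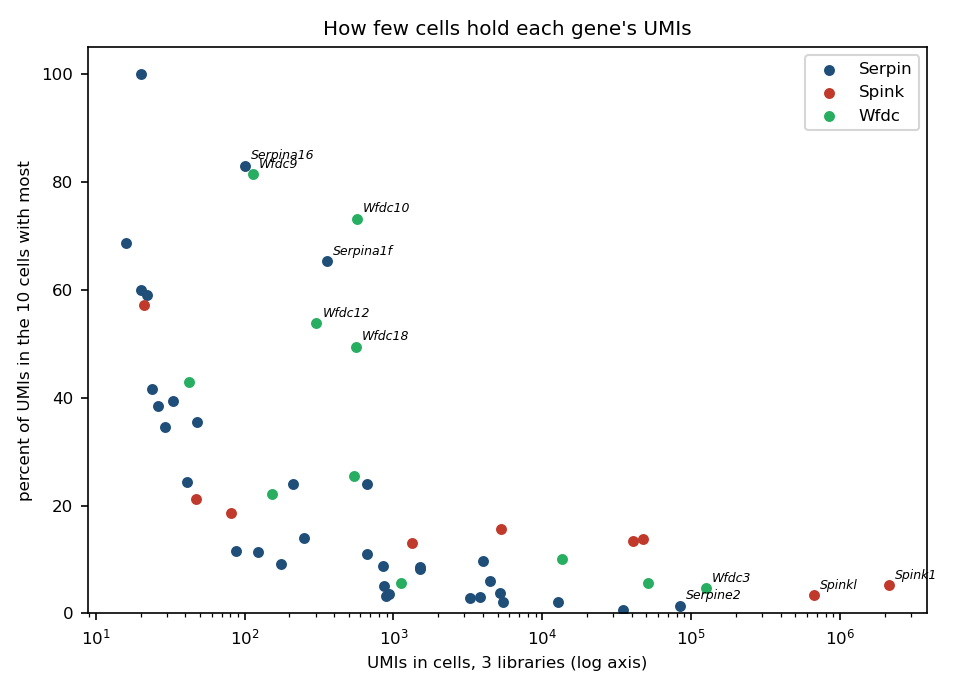
The horizontal axis gives each gene's UMIs in cells over the 3 libraries on a log axis, and the vertical axis the percent of them in the 10 cells with most, with 1 point per gene coloured by family. Wfdc10, Wfdc9, Serpina1f and Serpina16 stand at 65.4 to 83.0%, far above Spink1 at 5.29% and Serpine2 at 1.43%.

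Wfdc9 with Wfdc10, and Serpina16 with Serpina1f, are neighbours in the genome and had UMIs in those 12 cells, so the start of each gene is shown. Wfdc9 (minus strand, chr2:164649631-164656583) and Wfdc10 (plus strand, chr2:164656046-164657368) overlap at their 5′ ends in the GENCODE vM21 annotation of GRCm38, and Wfdc8 likewise overlaps Wfdc6b. Whether counting used strand is not given in the sources used here, so the split of UMIs between overlapping genes is uncertain. Serpina16 (chr12:103668808-103676139) and Serpina1f (chr12:103688044-103695529) both lie on the minus strand of the clade A serpin cluster. RefSeq, used for the windows below, places 2 of these starts elsewhere. Its start of Wfdc9 lies inside the GENCODE span, and from there the gene would not overlap Wfdc10. Its start of Serpina16 lies outside the GENCODE span. The 250 bases before each RefSeq start (GRCm38.p6) are given 5′ to 3′ on the strand of the gene, with capitals for matches to TGTTCT or its other strand AGAACA, the half-site of the DNA motif that androgen and glucocorticoid receptors bind.
Wfdc9 (minus strand, chr2:164654967-164655216): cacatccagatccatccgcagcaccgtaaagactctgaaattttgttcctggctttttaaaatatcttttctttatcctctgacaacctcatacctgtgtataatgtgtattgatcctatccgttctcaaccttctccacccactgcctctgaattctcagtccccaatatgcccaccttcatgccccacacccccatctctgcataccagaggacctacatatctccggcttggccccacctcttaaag
Wfdc10 (plus strand, chr2:164655796-164656045): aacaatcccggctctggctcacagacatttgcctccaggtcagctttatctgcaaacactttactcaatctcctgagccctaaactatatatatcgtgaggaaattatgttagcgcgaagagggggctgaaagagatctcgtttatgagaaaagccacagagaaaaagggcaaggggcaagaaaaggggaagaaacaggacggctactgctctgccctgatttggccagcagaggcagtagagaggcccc
Serpina16 (minus strand, chr12:103676763-103677012): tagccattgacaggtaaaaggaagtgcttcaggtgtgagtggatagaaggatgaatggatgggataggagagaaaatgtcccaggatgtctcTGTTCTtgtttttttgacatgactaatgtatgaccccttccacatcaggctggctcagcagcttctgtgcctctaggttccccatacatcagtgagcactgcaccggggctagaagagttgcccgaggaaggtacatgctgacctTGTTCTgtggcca
Serpina1f (minus strand, chr12:103695530-103695779): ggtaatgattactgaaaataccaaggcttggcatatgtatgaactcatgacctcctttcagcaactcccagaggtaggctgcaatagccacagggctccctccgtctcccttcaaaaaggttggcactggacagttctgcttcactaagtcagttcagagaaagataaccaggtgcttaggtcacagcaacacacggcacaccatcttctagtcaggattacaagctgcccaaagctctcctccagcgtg
Serpina16 held 2 matches in this window and the other three none. Of the members' promoters in the RefSeq table, 47 windows of 40 genes, 10 (21.3%) held a match, against 5284 of all 32851 (16.1%). No member's window held 2 such sites facing each other 3 bases apart, which 3 windows of the table did. A match describes these letters and shows no binding.

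Wfdc genes share one stretch of the genome with seminal vesicle genes. On chromosome 2, 14 Wfdc rows lay within 570 kb (chr2:164176327-164745931) among 33 protein-coding genes, together with 6 Svs genes, Slpi, Eppin and Spint3 to Spint5. Of these rows 8 were members, and they had different leading classes: Wfdc2 luminal proximal, Wfdc3 luminal secretory and Wfdc15b the Sprr2f cluster. Of the clade B serpins, 8 members lay within 1161 kb of chromosome 13 and 6 within 749 kb of chromosome 1. Close copies in these arrays, such as the Serpinb1, Serpinb6, Serpinb9, Serpina1 and Serpina3 genes, can share reads, so their separate counts are uncertain.

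In the seminal vesicle class, 23 members were tested, 9 were higher and 3 lower, against 13.6% of all genes, with a median log2 fold change of 0.61 for members and -0.01 for all genes. Spink1 was called higher by 4.28 ± 0.41 (adjusted p = 1.63e-22), at 5470, 721 and 376 CPM. Spinkl was called higher by 4.37 ± 0.42 (adjusted p = 9.43e-23), at 7230, 1344 and 15.4 CPM, a call lost with DESeq2. Cluster 11 held 96.6% of the knockout's Spink1 UMIs and 96.7% of its Spinkl UMIs in this class. In heterozygote 1, the 10 cells of cluster 11 held Spinkl at 23558 CPM, above the 9100 of the knockout's cluster 11, and 88.9% of the class's Spinkl UMIs.

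Cluster 4, the part of the seminal vesicle class present in every library, gave another picture. Fitted alone, a choice made after the data were seen, it had 4 members higher and 5 lower of 21 tested, against 2.35% of all genes, and in 4 of these 9 calls the side with more RNA was at or below the immune level. Spink1 there fell by 1.32 ± 0.31 (adjusted p = 0.00370; 190, 544 and 375 CPM), the opposite of the class, and all 3 levels were under those of immune cells. Spink8 fell by 1.92 ± 0.32 (441, 795 and 1778 UMIs; adjusted p = 4.38e-06) and Spink10 by 1.80 ± 0.32 (104, 257 and 243 UMIs; adjusted p = 3.37e-05). Serpina3g, a clade A serpin known from lymphocytes, rose by 2.91 ± 0.41 (123, 17 and 6 UMIs; adjusted p = 4.85e-08). Its 11.5 CPM in the knockout was under the 14.9 of immune cells. Immune cells can make this gene, with 15.0 CPM in T or NK cells and 125 in dendritic cells of the knockout. The immune level therefore cannot serve as its background. Serpinb6a, called higher in the class by 2.07 ± 0.28 (adjusted p = 1.13e-11), was at 35.6, 31.5 and 32.4 CPM in cluster 4, and Serpine2 did not pass in the class (-0.46 ± 0.37, adjusted p = 0.526). Wfdc15b was called higher in the class by 0.90 ± 0.28 (adjusted p = 0.0113), while by plain totals the knockout, at 146 CPM, lay between the heterozygotes at 203 and 101.

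In basal cells 27 members were tested, 3 were higher and 5 lower, against 4.08% of all genes. Serpinb5, their leading serpin, was at -0.34 ± 0.26 (adjusted p = 0.725) and did not pass. Serpina3f rose by 2.02 ± 0.44 (90, 4 and 16 UMIs; adjusted p = 3.74e-04). Spink8 fell by 0.92 ± 0.25 (adjusted p = 0.00970) from 49.5 and 37.6 CPM to 21.03. Among clusters fitted alone this call was made in cluster 8 (-2.80 ± 0.32, adjusted p = 1.00e-15) and not in cluster 0 (-0.18 ± 0.28, adjusted p = 0.931) or cluster 19 (0.14 ± 0.51, adjusted p = 0.981). Serpinf1 was called higher by 1.82 ± 0.46 (81, 15 and 4 UMIs; adjusted p = 0.00353), but its 8.82 CPM in the knockout was under that of immune cells, at 14.1. Fitted alone, cluster 0 had 2 higher and 3 lower of 21 (2.61% of all genes) and cluster 8 had 0 higher and 5 lower of 17 (4.36%), with 4 of the 5 calls of cluster 0 and 2 of the 5 of cluster 8 at or below the immune level on the side with more RNA. In cluster 8, which also carried proximal markers, Wfdc15b fell by 1.99 ± 0.30 (216, 156 and 149 UMIs; adjusted p = 1.10e-08) and Wfdc2 by 0.89 ± 0.28 (184, 63 and 58 UMIs; adjusted p = 0.0376). In cluster 0 Wfdc15b was called in the other direction, higher by 1.38 ± 0.33 (109, 22 and 26 UMIs; adjusted p = 0.00259), with 21.5 CPM in the knockout against 28.2 in immune cells.

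Ionocytes had 19 members tested, 1 higher and 7 lower, against 1.82% of all genes. Their leading inhibitors did not pass: Serpinb6b was at 0.51 ± 0.29 (adjusted p = 0.690), Serpinb9 at 0.55 ± 0.29 (adjusted p = 0.588) and Serpine2 at -0.28 ± 0.32 (adjusted p = 0.964). Spink10 fell by 2.30 ± 0.40 (adjusted p = 2.34e-06) and Spink8 by 2.07 ± 0.31 (adjusted p = 2.07e-08), both above immune levels in all libraries. Seminal vesicle secretory genes took 29.6%, 37.6% and 37.8% of ionocyte UMIs, against 6.11%, 3.62% and 1.79% in T or NK cells. Immune levels can therefore be too low a background here. Spink10 was at 5.45, 46.5 and 18.7 CPM in ionocyte cluster 23, and at 9.76, 44.7 and 22.4 in seminal vesicle cluster 4. Whether ionocytes make these RNAs, or that of Serpine2, was not tested. DESeq2 called no member of this class, and edgeR gave 10 at an unadjusted p under 0.05. Wfdc10 was called from 0, 51 and 0 UMIs, all in 3 cells of heterozygote 1, and without that library no difference remained.

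The stroma showed few calls. Smooth muscle had 16 members tested, 1 higher and 3 lower, against 3.73% of all genes. Serping1 fell by 0.98 ± 0.30 (988, 442 and 485 UMIs; adjusted p = 0.0329), a call lost with DESeq2, without the low-count filter and with doublets kept. Wfdc1 there was at -0.86 ± 0.28 (adjusted p = 0.0557) and did not pass. In fibroblasts 14 members were tested, with Spinkl higher and Wfdc3 lower, against 1.27% of all genes, and both were under the immune level on the side with more RNA. Serping1 (0.52 ± 0.47, adjusted p = 0.951), Serpinf1 (0.71 ± 0.42, adjusted p = 0.854) and Serpinh1 (0.15 ± 0.43, adjusted p = 0.990) did not pass there. In endothelial cells, of 12 members tested edgeR called 0, against 0.349% of all genes, with 3 at an unadjusted p under 0.05 and 0 by DESeq2.

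Other inhibitors and the proteases that such inhibitors can bind were taken from 2 fixed lists. Of 31 other inhibitors, 6 to 15 were tested per class, and 3 were called higher and 1 lower over the 9 classes. Mug1, a murinoglobulin that traps proteases of several kinds, fell by 5.86 ± 0.55 in luminal secretory cells (0.207, 14.5 and 10.0 CPM after scaling; adjusted p = 2.81e-23), and it is among the leading genes of cluster 15. Tfpi, the tissue factor pathway inhibitor, rose there by 0.99 ± 0.30 (adjusted p = 0.0453). Of 69 genes in the protease list, 6 to 29 were tested per class. Calls are given as higher and lower of those tested, with the percent of all genes called. Luminal secretory cells had 2 and 2 of 29 (1.99%), proximal 2 and 1 of 15 (2.25%) and basal 0 and 4 of 15 (4.08%). The Sprr2f cluster had 1 and 2 of 14 (2.51%), seminal vesicle 1 and 2 of 13 (13.6%) and ionocytes 1 and 2 of 12 (1.82%). Smooth muscle had 1 and 2 of 13 (3.73%), fibroblasts 1 and 0 of 11 (1.27%) and endothelial cells 0 and 0 of 6 (0.349%). Plat, which encodes tissue plasminogen activator, rose in luminal secretory cells by 1.42 ± 0.29 (67.0, 20.8 and 29.2 CPM after scaling; adjusted p = 1.86e-04) and in proximal cells by 1.41 ± 0.28 (adjusted p = 1.61e-04). F3, the coagulation cofactor tissue factor, rose in 4 classes and fell in the Sprr2f cluster by 1.80 ± 0.49 (adjusted p = 0.0465). C1rb, a complement protease gene of the kind that Serping1 blocks, fell in smooth muscle by 1.77 ± 0.39 (12.2, 29.96 and 51.9 CPM after scaling; adjusted p = 3.83e-04), and was also called lower in ionocytes and proximal cells. In basal cells it was called lower by 0.95 ± 0.24 (adjusted p = 0.00318), but the knockout, at 32.9 CPM after scaling, was level with heterozygote 1 at 32.5, and heterozygote 2 alone was higher at 91.6. C1s2 was called lower in the Sprr2f cluster, basal cells, ionocytes and the seminal vesicle class, and Htra1 in basal cells and smooth muscle. In basal cells, however, C1s2 in the knockout, at 7.46 CPM after scaling, lay between heterozygote 1 at 5.10 and heterozygote 2 at 30.4. Plau rose in the Sprr2f cluster by 1.39 ± 0.34 and fell in the seminal vesicle class by 0.88 ± 0.30. Tmprss4 and Cela1 were lower in luminal secretory cells and Prss22 in basal cells. Plat was also higher in the seminal vesicle class, and Masp1 in fibroblasts.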

How the data were processed

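The authors deposited raw UMI counts per gene and barcode for each of the 3 libraries; Cell Ranger 3.1.0 and the build mm10 are named in the submitters' processing notes, while the annotation, strand setting and capture chemistry were not given in the sources used here. The cell filter asked for 500 or more genes with mitochondrial UMIs up to 15%; doublets were then called against simulated pairs at 0.8% per 1000 cells. Clustering used 2000 variable genes, 30 principal components, 15 neighbours and Leiden resolution 1.0 (igraph 0.11.9), without the 3 inhibitor families and without 70 genes whose share in barcodes under 500 genes reached 0.1%. A class name needed 3 markers at a log2 fold of at least 1 in at least 25% of cells. A name was refused where another class's markers or MHC class II genes led, or where seminal vesicle secretory genes took over 20% of UMIs and no own marker led; the last 2 conditions, and keeping the Sprr2f cluster apart, were added after the data were seen.

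UMI sums per class were fitted with edgeR 4.0.16 (quasi-likelihood, TMM, filterByExpr, tested on simulated data) in R 4.3.3, knockout against both heterozygotes, with DESeq2 1.42.0 as an alternative. A standard error is the log2 fold change divided by the root of F. CPM in the text uses plain class totals unless it says after scaling, which means TMM. Named genes were drawn from the 3 highest members of each class, members with at least 200 UMIs, the calls, and a fixed set of well-known members. Not every gene of these groups and not every call is named in the text. Values of 1 member are not reported here. The members, lists and classes were chosen with earlier results of these data known. Positions came from GENCODE vM21 (GRCm38), which held 97.8% of the listed gene identifiers and 53 of the 54 members, and promoters from RefSeq. Intervals and floors cover counting error only.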

Additional observations from a re-analysis of the deposited data

Results flagged for a closer look

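Spink1 was higher in the knockout than in both heterozygotes in some classes and lower than in both in others, by at least 1 on the log2 scale against each heterozygote. It rose by 4.28 in the seminal vesicle class and by 2.27 in the Sprr2f cluster. It fell by 2.04 in luminal secretory cells and by 2.99 in ionocytes (log2 fold change, -2.99). The difference between these classes was not tested. The ionocyte levels were under those of immune cells in all 3 libraries, and the luminal and seminal vesicle values move with cells of clusters 15 and 11, as given above. In cluster 4, the seminal vesicle cluster shared by all libraries, Spink1 was lower. In the Sprr2f cluster seminal vesicle secretory genes took 50.8%, 46.8% and 43.2% of UMIs, and whether free RNA raised Spink1 there was not tested.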

How the results depend on the processing

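Of the 54 calls, 17 kept their direction and stayed past the threshold in every whole-class alternative with a test, 37 were lost in at least one and 3 turned direction in one; fits of single clusters, given below, are not in these counts. In the Sprr2f cluster all 10 calls were kept in the 6 alternatives in which that cluster formed or could be tested. It formed no unit of its own with doublets kept, the stricter cell filter or the members allowed in clustering. Foreign RNA subtraction was not run for it, ionocytes or the seminal vesicle class. The foreign share, estimated from seminal vesicle secretory RNA, was 70.0%, 100% and 100% in ionocytes and 100% in each library for the Sprr2f cluster. DESeq2 called 1 member instead of 8 in basal cells, 1 instead of 2 in fibroblasts, 0 instead of 8 in ionocytes, 0 instead of 5 in luminal proximal cells, 3 instead of 5 in luminal secretory cells, 5 instead of 12 in the seminal vesicle class and 0 instead of 4 in smooth muscle. Subtraction of foreign RNA left 1 call in basal cells and gave 1 in endothelial cells. With doublets kept there were 5 calls in basal cells, 2 in endothelial cells, 5 in fibroblasts and 1 in luminal proximal cells. The stricter cell filter gave 1 in endothelial cells, 2 in luminal proximal cells and 2 in smooth muscle, and allowing the members in clustering gave 0 in fibroblasts and 3 in luminal proximal cells. Without the low-count filter fibroblasts had 0, with another random seed luminal proximal cells had 0, and totals without seminal vesicle and low-barcode genes left 5 in basal cells. The cause of these changes was not tested.

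The count of members with one leading class in all libraries was 13 to 20 over the clustering alternatives, against 18. Of those 18, 9 kept the same class with doublets kept, 11 with the stricter cell filter, 13 with the members allowed in clustering, 17 at the lower resolution and 18 with another seed. Direction turned for Spink1 in endothelial cells after subtraction of foreign RNA (7.87; it was not called before), for Spinkl in luminal proximal cells after it (-0.15), and with doublets kept for Spinkl in fibroblasts (-0.62) and Spink1 in smooth muscle (0.32). Without heterozygote replicate 1 and without heterozygote replicate 2, Spink11 in ionocytes was at 0.87 and -4.18, Wfdc10 in ionocytes at 0 and -5.54, and Wfdc3 in smooth muscle at -2.49 and 0.0635; these compare 1 library with 1 and have no test. Among clusters fitted alone, a choice made after the data were seen, Spink8 turned in cluster 19 of the basal class (0.14), and Serpinb1a (-0.43) and Spink1 (-1.32) in cluster 4 of the seminal vesicle class. By plain class totals, 3 of the 54 calls had the knockout between the heterozygotes. With 55 heterozygote 1 fibroblasts and 57 endothelial cells, depth limits these classes most. No paired analysis was possible, since there was only 1 knockout library and the labels give no pairing.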
